A study of Saccharomyces cerevisiae with 2 samples.

Results

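The genes described here encode proteins of the mitochondrial ribosome of the budding yeast Saccharomyces cerevisiae. They were chosen by name, as genes whose standard name is MRPL, MRPS or RSM followed by a number, and 54 of the 7163 features in the deposited table met this rule, 34 of the large subunit (MRPL) and 20 of the small subunit (9 MRPS and 11 RSM). RNA was sequenced from 2 strains, MF02, labelled as the wild type, and UV02_HG, whose genotype is labelled only by that name. Both were grown in 40% (w/v) glucose to mid-exponential phase, so no sample at a lower glucose level is part of the comparison. The labels give 1 sample per strain and the table holds 2 columns of values for each, so every strain difference below is a difference between 1 sample and 1 sample, without a replicate check and without a p-value. The series design speaks of duplicates, but the labels do not say whether the columns come from separate cultures, and the spread between them may be technical.

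The mitochondrial ribosome translates the few messenger RNAs of the mitochondrial genome, which in yeast encode mainly core subunits of the respiratory chain and of the ATP synthase. Nearly all of its proteins are encoded in the nucleus, made in the cytosol and imported, while its ribosomal RNAs and the protein Var1 are made inside the organelle. Respiration, and with it the demand for mitochondrial translation, is repressed in yeast growing on abundant glucose. Some of the proteins descend from bacterial ribosomal proteins and others are found only in mitochondrial ribosomes.

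The mitochondrial ribosomal protein genes did not differ between the strains in one common direction. As deposited, 13 of the 54 genes (24.1%) were at least 2-fold higher in UV02_HG, where 14.7% of all 6291 features tested were, and 21 (38.9%) were at least 2-fold lower, where 47.2% of all features were. The median log2 ratio of UV02_HG over MF02 was -0.31 for the 54 genes and -0.89 for all features. The ratio was taken on FPKM + 1, where FPKM is fragments scaled by gene length and library size, and 2-fold means a log2 ratio of 1. Over the 4 comparisons of one UV02_HG column with one MF02 column, the median of the 54 genes ran from -0.56 to -0.24. It turned positive under upper quartile scaling (0.36) and under centring on the median gene (0.58). Equal FPKM totals gave 0 members higher and 33 lower (62.3% of the 53 that passed the filter), where 4.82% and 70.1% of all features were. Upper quartile scaling gave 16 (29.6%) and 9 (16.7%), where 23.6% and 27.7% of all features were. Centring on the median gene gave 21 (38.9%) and 7 (13.0%), where 28.6% and 20.6% were. Under these scalings the median of all features was -1.87, -0.27 and 0.

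Much of this split followed the length of the coding sequence. Across the 54 genes, which share their libraries, Spearman's rho (a description, with no test) of coding length with the log2 ratio was -0.71, and across all 5695 genes with a coding length it was -0.53. Of the 20 members up to 500 nt long, 9 (45.0%) were at least 2-fold higher and 1 (5.0%) was lower, with a median log2 ratio of 0.53. Of all 843 genes of that length 45.0% were higher and 9.37% lower, with a median of 0.83. Of the 19 members longer than 800 nt, 0 were at least 2-fold higher and 15 (78.9%) were lower, with a median of -1.47. Of all 4028 genes of that length 2.04% were higher and 65.3% lower, with a median of -1.39. The 15 members between had a median of -0.49. Each log2 ratio is therefore also given relative to length, that is, minus the running median over the genes closest in coding length (100 shorter, 100 longer and the gene itself).

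**Figure D1:**
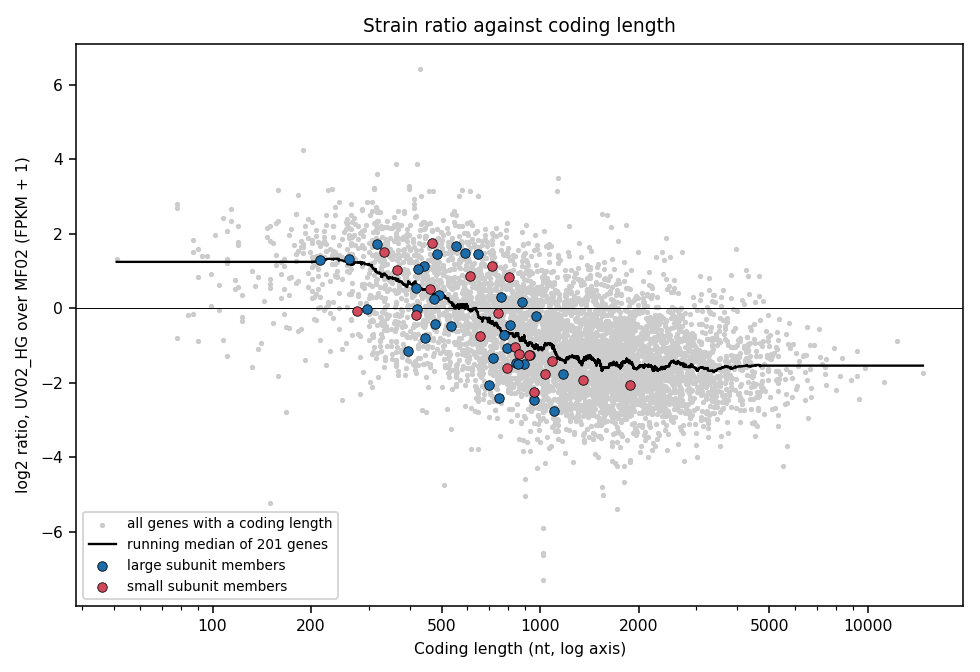
Log2 ratio of UV02_HG over MF02 (vertical axis, FPKM + 1) against coding length (horizontal axis, nt, log scale) for all 5695 genes with a coding length (grey), the large subunit members (blue) and the small subunit members (red), with the running median as a line. The members follow the line downward with length, from 9 of 20 at least 2-fold higher up to 500 nt to 15 of 19 at least 2-fold lower above 800 nt, and scatter on both sides of it.

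Relative to length, 7 of the 54 genes (13.0%) were at least 2-fold higher, where 17.1% of all genes with a coding length were, and 9 (16.7%) were at least 2-fold lower, where 16.8% of all genes were. With the means of both columns the shares are near those of all genes. Without MF02 column 1 the lower genes numbered 15 (27.8%), where 18.2% of all genes were lower. The median relative to length was -0.33 for the members, from -0.60 to -0.00 over the 4 column comparisons, and 21 genes lay above 0. The members were spread about as widely as other genes, with an SD of 0.95 against 1.08 for all genes with a coding length, although their products occur together in one particle.

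The large and the small subunit differed little. Their median log2 ratios were -0.31 and -0.47 as deposited and -0.22 and -0.37 relative to length. The difference of the last pair, 0.16 for large minus small, ran from 0.0088 to 0.37 when 1 column was left out and turned to -0.11 when means replaced medians and to -0.12 after a further adjustment for GC content. Of all genes with a coding length, 17.1% were at least 2-fold higher relative to length and 16.8% lower. In the large subunit 4 of 34 genes (11.8%) were higher and 7 (20.6%) lower. In the small subunit 3 of 20 were higher and 2 lower. By ancestry, the 33 genes for homologues of bacterial ribosomal proteins had a median relative to length of -0.11. Of these, 5 (15.2%) were at least 2-fold higher and 4 (12.1%) lower. The 21 genes for proteins specific to mitochondria had -0.42, with 2 (9.52%) higher and 5 (23.8%) lower. The difference between these classes was not tested.

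The transcripts of the mitochondrial ribosome stood high among yeast genes in both strains. The median FPKM of the 54 genes was 124 and 138 in the MF02 columns and 112 and 93.7 in the UV02_HG columns, while the median of all genes with a coding length was 28.6 and 44.4 in MF02 and 16.8 and 17.1 in UV02_HG. Between 50 and 52 of the 54 genes lay above the median gene of their column. Set against genes of the same length, 43 and 49 of the 53 members other than MRPL38 lay above the running median in the MF02 columns and 37 and 38 in the UV02_HG columns. The genes took 0.574% (95% Wilson interval 0.570 to 0.578) and 0.568% (0.564 to 0.572) of the reads in MF02, at library totals inferred from the FPKM values. In UV02_HG they took 0.657% (0.652 to 0.661) and 0.627% (0.623 to 0.632). These intervals cover counting error only. The share was higher in both UV02_HG columns, while more of the members were lower than higher per gene. Short genes stood higher in UV02_HG in general, with a median log2 ratio of 0.83 for all genes up to 500 nt. The share was not compared with that of other genes of the same lengths. For the large subunit alone the shares were 0.328% and 0.332% in MF02 and 0.385% and 0.392% in UV02_HG. For the small subunit they were 0.246% and 0.236% in MF02 and 0.272% and 0.236% in UV02_HG, where the columns of the strains overlapped.

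Levels of the members lay closer together in MF02 than in UV02_HG. The FPKM at the upper quartile of the 54 genes was 3.09 and 2.14 times that at the lower quartile in the MF02 columns, and 7.97 and 8.20 times in the UV02_HG columns. For all genes with a coding length these ratios were 9.50 and 5.88 in MF02 and 10.8 and 10.1 in UV02_HG. Longer genes had lower levels in both strains, with a rho across the 54 genes of -0.54 in MF02 and -0.69 in UV02_HG, which share the gene lengths used in FPKM. Set relative to genes of the same length within each column, the SD of log2(FPKM + 1) over the 53 members other than MRPL38 was 1.09 and 0.83 in MF02 and 1.32 and 1.31 in UV02_HG. For all genes with a coding length that SD was 2.14 and 2.02 in MF02 and 2.13 and 2.10 in UV02_HG. Whether the wider spread of the members in UV02_HG exceeds the variation between cultures was not tested.

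**Figure D2:**
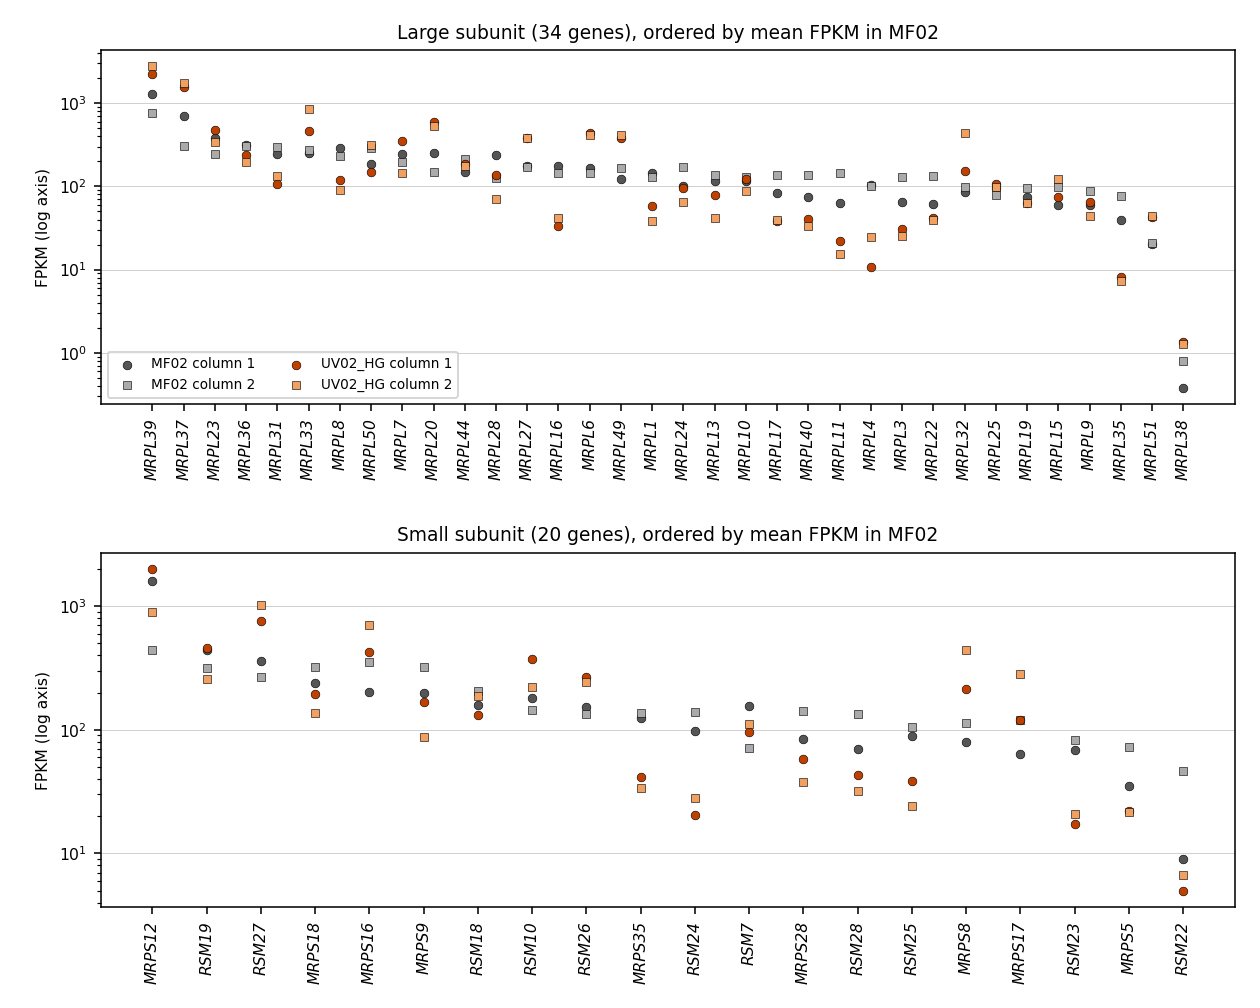
FPKM (vertical axes, log scale) of the 34 large subunit genes (top) and the 20 small subunit genes (bottom), ordered by mean FPKM in MF02; grey symbols are the 2 MF02 columns and orange symbols the 2 UV02_HG columns. The UV02_HG points reach both above and below the grey ones, from MRPL39 at 2257 and 2754 FPKM, above its grey points, to RSM22 at 4.96 and 6.71 FPKM, below them, with MRPL38 alone near 1 FPKM.

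The highest levels belonged to short genes. MRPL39, a gene of 213 nt for the homologue of bacterial protein L33, had 1277 and 764 FPKM in the MF02 columns and 2257 and 2754 in the UV02_HG columns. Both UV02_HG columns were above both MF02 columns, 2.45-fold on the means, yet relative to length its log2 ratio was 0.00. MRPS12, which encodes the homologue of bacterial protein S12 at the decoding centre, had 1593 and 445 FPKM in the MF02 columns and 1989 and 902 in the UV02_HG columns. The columns of one strain overlapped those of the other, so the log2 ratio of 0.50 lay within the spread between columns. MRPL37 had 706 and 305 FPKM in the MF02 columns and 1564 and 1750 in the UV02_HG columns, 3.28-fold higher (2.22 to 5.72 over the column comparisons) and 0.74 relative to length. RSM27 had 363 and 267 against 757 and 1023 FPKM, 2.82-fold higher and 0.60 relative to length. Both products are specific to mitochondrial ribosomes, and the columns of the strains did not overlap for either gene.

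At the other end stood MRPL38, the gene for the homologue of bacterial protein L14, with 0.375 and 0.792 FPKM in the MF02 columns and 1.34 and 1.29 in the UV02_HG columns. These values rest on 2 and 5 reads in MF02 and 7 and 7 in UV02_HG. It passed the filter of 1 FPKM through UV02_HG only. The ratio of its summed reads, corrected for the library totals, was 2.19 with an exact 95% counting interval from 0.826 to 6.40. A difference was not detectable at these read counts. The table also lists YKL169C, the identifier next to that of MRPL38 (YKL170W), which has no gene in the R64 annotation and at most 0.344 FPKM. MRPL51, with 20.3 and 20.9 FPKM in the MF02 columns and 43.1 and 43.9 in the UV02_HG columns, overlaps YPR099C on the opposite strand over 76.4% of its length, and YPR099C is listed at 0 in all columns. MRPL19 shares 23.7% of its length with YNL184C on the same strand, which had at most 1.96 FPKM. The strand setting of the counting is not given in the sources used here, and the part of such overlaps in these low levels was not tested. All members other than MRPL38 had at least 105 reads in every column.

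Among the genes that stood highest in UV02_HG for their length, 2 met the 2-fold mark in all 4 column comparisons both as deposited and relative to length, where 3.16% of all genes did. The first was MRPL6, for the homologue of bacterial protein L6, with 165 and 146 FPKM in the MF02 columns and 437 and 416 in the UV02_HG columns. It was 2.73-fold higher (2.52 to 2.97) and 1.62 relative to length, and its columns agreed closely within each strain. The second was MRPL20, for a protein specific to mitochondria, with 254 and 148 FPKM in the MF02 columns and 592 and 525 in the UV02_HG columns. It was 2.77-fold higher (2.06 to 3.97) and 1.44 relative to length. RSM26, whose product belongs to the family of manganese superoxide dismutase, had 152 and 134 FPKM in the MF02 columns and 267 and 243 in the UV02_HG columns. It was 1.78-fold higher (1.59 to 1.99), which is under 2-fold as deposited and turned negative (-0.28) under equal FPKM totals, but 1.504 relative to length, where its lowest column comparison was 1.12.

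MRPL32, MRPS17 and MRPS8 were high for their length as well, but their UV02_HG columns lay far apart. MRPL32, whose product must be trimmed by the m-AAA protease of the inner membrane before the large subunit can assemble, had 85.7 and 97.2 FPKM in the MF02 columns and 151 and 436 in the UV02_HG columns. It had the highest log2 ratio relative to length of all members, 1.67, with a range from 0.54 to 2.42. MRPS17, for the homologue of bacterial protein S17, had 63.7 and 119 FPKM in the MF02 columns and 120 and 284 in the UV02_HG columns. Its lower UV02_HG column barely cleared the higher MF02 column, and its fold of 2.201 ran from 1.01 to 4.41, and its log2 ratio turned to -0.047 under equal FPKM totals. MRPS8, for the homologue of bacterial protein S8, had 80.2 and 113 FPKM in the MF02 columns and 213 and 440 in the UV02_HG columns, 3.35-fold higher (1.87 to 5.44) and 1.27 relative to length. MRPL49 (1.12) was the seventh gene at least 2-fold higher relative to length. MRPS17 and MRPS8 lie on chromosome XIII, where the 449 genes other than members had a median relative to length of 0.37, and the 7 members there had a median of 0.00.

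On the low side, 3 large subunit genes met the 2-fold mark in all 4 column comparisons in both ways, where 6.41% of all genes did. MRPL11, for the homologue of bacterial protein L10 at the base of the stalk that binds translation factors, had 62.3 and 146 FPKM in the MF02 columns and 21.9 and 15.2 in the UV02_HG columns. It was 5.37-fold lower (2.77 to 9.03) and at -1.89 relative to length, the lowest of all members. MRPL16, for the homologue of bacterial protein L16, had 176 and 143 FPKM in the MF02 columns and 33.4 and 41.1 in the UV02_HG columns, 4.20-fold lower (3.41 to 5.16) and at -1.79. MRPL35, for a protein related to phosphatidylethanolamine-binding proteins, had 39.0 and 77.1 FPKM in the MF02 columns and 8.11 and 7.29 in the UV02_HG columns, 6.79-fold lower (4.39 to 9.42) and at -1.66. As the mark requires, every UV02_HG column was below every MF02 column for these 3 genes. They stayed lower under each of the 3 scalings, but those shifts were too small to turn log2 ratios of this size.

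Of the other genes at the low end, MRPL4 and MRPL31 differed as deposited and RSM19 did not. MRPL4, for the homologue of bacterial protein L29 near the exit of the peptide tunnel, had 105 and 100 FPKM in the MF02 columns and 10.7 and 24.7 in the UV02_HG columns, 5.53-fold lower (3.94 to 8.99) and at -1.38 relative to length. MRPL31, for a protein specific to mitochondria, had 246 and 295 FPKM in the MF02 columns and 106 and 135 in the UV02_HG columns, 2.24-fold lower (1.82 to 2.76) and at -1.86. RSM19, for the homologue of bacterial protein S19, had 441 and 319 FPKM in the MF02 columns and 459 and 256 in the UV02_HG columns. Its columns overlapped between the strains, and its log2 ratio was -0.09 as deposited and -1.32 relative to genes as short as its 276 nt. RSM24 (-1.21), MRPL28 (-1.30) and MRPL44 (-1.18) were the other genes at least 2-fold lower relative to length. The ratio relative to length still followed GC content, with a rho of -0.31 across all genes and -0.13 across the members. After a further adjustment for GC content, RSM19 (-0.92) and MRPL28 (-0.71) no longer reached 2-fold. With it 7 members (13.0%) were lower and 9 (16.7%) higher, where 13.6% and 16.6% of all genes were. RSM22, the longest member at 1887 nt and a gene of the methyltransferase family, had 9.07 and 46.1 FPKM in the MF02 columns and 4.96 and 6.71 in the UV02_HG columns. Its MF02 columns stood 2.23 apart on the log2 scale, the widest gap between columns of any of the 54 genes, and its log2 ratio of -2.06 became -0.60 relative to length.

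**Figure D3:**
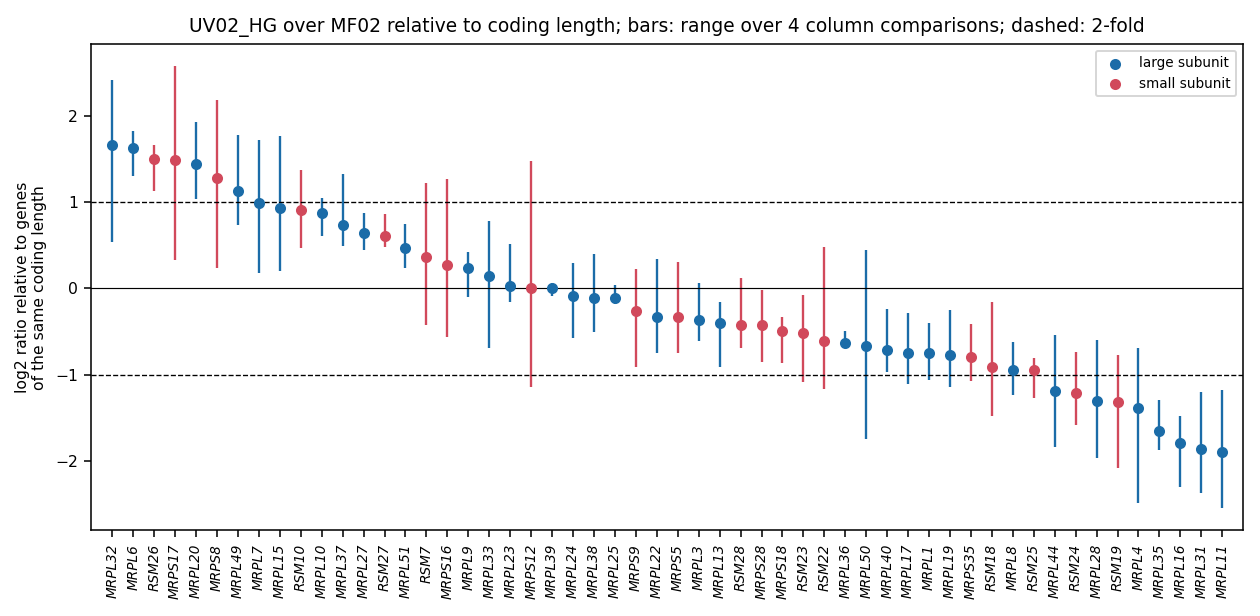
Log2 ratio of UV02_HG over MF02 relative to coding length (vertical axis) for each of the 54 genes, large subunit in blue and small subunit in red; points use the column means, bars span the 4 column comparisons and dashed lines mark 2-fold. Genes of both subunits occur along the whole order, from MRPL32 at 1.67 to MRPL11 at -1.89, and the bars of several genes, MRPS12 among them, cross 0.

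By site in the ribosome, the picture was as mixed. Of 6 genes for proteins around the tunnel exit, 5 (MRPL3, MRPL4, MRPL13, MRPL22 and MRPL40) were at least 2-fold lower as deposited, with both UV02_HG columns below both MF02 columns. Among all genes longer than 800 nt, as 4 of these 5 are, 65.3% were at least 2-fold lower and 75.4% had both columns below. Relative to length only MRPL4 was at least 2-fold lower, and the others of the 5 lay between -0.71 and -0.33. The sixth, MRPL27, was 2.21-fold higher (2.16 to 2.26), with 174 and 169 FPKM in the MF02 columns and 378 and 382 in the UV02_HG columns, and 0.65 relative to length. The other stalk base gene on the list, MRPL19, had 74.9 and 94.4 FPKM in the MF02 columns and 63.2 and 63.2 in the UV02_HG columns, at -0.77 relative to length. Of the genes for proteins at the decoding site and the neighbouring messenger RNA path, 0 were at least 2-fold different relative to length. Their values were 0.37 for RSM7, 0.01 for MRPS12, -0.27 for MRPS9 and -0.50 for MRPS18. MRPS12 and RSM19, the only members next to each other on a chromosome, stood at 0.01 (-1.15 to 1.48 over the column comparisons) and -1.32 (-2.08 to -0.77) relative to length. The ranges overlap but come from the same 4 comparisons, so the overlap does not tell whether the genes differ within each comparison.

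The only measure of spread in the data is that between the columns of one sample, which does not hold the variation between cultures. The UV02_HG columns differed at least 2-fold for 7 of the 54 genes (13.0%), where 8.09% of all features did. The MF02 columns did so for 8 genes (14.8%), where 38.1% of all features did. Both UV02_HG columns were above both MF02 columns for 17 genes (31.5%), where 20.7% of all features were. Both were below for 25 genes (46.3%), where 56.4% of all features were. The remaining 12 genes overlapped. In all 4 column comparisons as deposited, 7 members were at least 2-fold higher, where 8.68% of all features were, and 11 were lower, where 24.9% were. Relative to length 3 were higher in all 4, where 8.17% of all genes were, and 4 were lower, where 7.8% were. Longer genes had a higher ratio of MF02 column 2 over column 1, with a rho of 0.45 across the 54 genes and 0.62 across all genes with a coding length.

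Other genes of mitochondrial translation were mixed as well. The 24 other mitochondrial ribosomal protein genes tested, such as those named MRP or IMG, had a median relative to length of -0.49. Of these, 2 of 24 (8.33%) were at least 2-fold higher and 7 (29.2%) lower, where 17.1% and 16.8% of all genes were. EHD3, the 25th on that list, is listed at 0 in all columns. MRP10 (-2.94) and RTC6 (-2.55) were the lowest of them, below any of the 54 members, and MRP2 (1.35) and MRP21 (1.23) the highest. MRP10 had 472 and 332 FPKM in the MF02 columns and 125 and 119 in the UV02_HG columns, so its columns did not overlap. With these genes added to the members, 9 of 78 (11.5%) were at least 2-fold higher and 16 (20.5%) lower relative to length.

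Mitochondrial translation factors (11 genes) had a median of -0.01 relative to length and mitochondrial aminoacyl-tRNA synthetases (13 genes) one of -0.39. Of the synthetases, 0 were at least 2-fold higher and 2 (15.4%) lower, NAM2 (-1.76) and MSD1 (-1.70). Of all genes with a coding length, 17.1% were at least 2-fold higher relative to length and 16.8% lower. Genes listed as mitochondrial translational activators (19 genes, with CCM1 also on the assembly list below) had a median of 0.36. Of these, 7 (36.8%) were at least 2-fold higher and 2 (10.5%) lower. AEP2 (2.24) and CBP6 (1.52) were the highest of these, and MAM33 (-1.56) and MSS51 (-1.37) the lowest. Genes for assembly and membrane attachment of the mitochondrial ribosome (14 genes) had a median of 0.12. Of these, 0 were at least 2-fold higher and 2 (14.3%) lower. Among them MDM38, for an inner membrane protein that binds the ribosome, had 40.98 and 103 FPKM in the MF02 columns and 2.09 and 3.65 in the UV02_HG columns, and stood at -2.70. AFG3, for a subunit of the m-AAA protease that trims Mrpl32, stood at -1.02. YTA12, for the other subunit of that protease, stood at -0.07. Nuclear genes of the respiratory chain and the ATP synthase (34 genes) had a median of 0.01, with 3 (8.82%) higher and 3 (8.82%) lower. The list of cytosolic ribosomal protein genes (138) had one of 0.36, with 47 (34.1%) higher and 20 (14.5%) lower. That list was taken by name and includes RPP1, which does not encode a ribosomal protein.

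**Figure D4:**
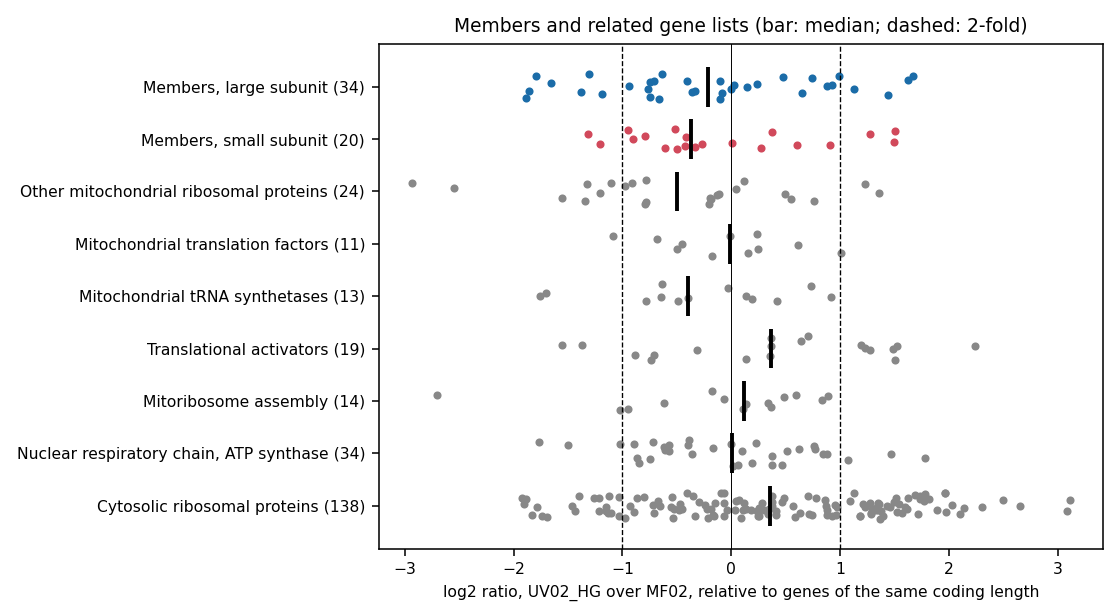
Log2 ratio of UV02_HG over MF02 relative to coding length (horizontal axis) for each gene of the members and of 7 related lists (rows, with the number of genes); bars mark the medians and dashed lines 2-fold. The medians lie between -0.49 for the other mitochondrial ribosomal proteins and 0.36 for the activators and the cytosolic ribosomal proteins, and single genes of every list but the synthetases and assembly genes reach 2-fold in both directions.

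The parts of the ribosome that mitochondria make themselves had few reads. VAR1, the mitochondrial gene for a small subunit protein, had 0 reads in 3 columns and 1 read in UV02_HG column 2. The 21S ribosomal RNA stood at 2.54 and 0.841 FPKM in the MF02 columns and 3.03 and 0.442 in the UV02_HG columns, and the 15S ribosomal RNA at 0.279 FPKM or less. The most abundant of the 7 mitochondrial respiratory genes looked at, OLI1, had 22.7 and 7.43 FPKM in the MF02 columns and 97.3 and 196 in the UV02_HG columns. VAR1 was not compared with the nuclear members because of its few reads. Why VAR1 and the ribosomal RNAs had few reads was not tested.

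The 250 bases before the coding start were searched for AATTTT, a motif found upstream of growth-related genes in several yeasts, on both strands. It occurred in 17 of the 54 members (31.5%), in 12 of 34 large subunit genes and 5 of 20 small subunit genes. The share was 48.6% of 6009 genes with a full window and 51.5% of 132 cytosolic ribosomal protein genes named RPL or RPS. The median log2 ratio relative to length was -0.08 for the 17 members with the motif and -0.37 for the 37 without it. A match is a run of letters in the R64 reference sequence and not a measured binding site.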

How the data were processed

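The values used are FPKM as deposited by the authors, per the file headers, in 2 columns for each strain. Tools named in the submitters' processing notes are HTSeq 0.6.1, Bowtie2 2.2.3 and TopHat2 2.0.12, while neither a genome build nor a strand setting is given in the sources used here. Another 4 lines held no values and were left out. The strain value is the mean of its columns, counted as 1 sample. Identifiers were matched to R64 locus tags (NCBI RefSeq), which gave names, chromosomes, coding lengths and GC content for 6010 of the 7163 features. Multiplying FPKM by coding length gave whole reads (within 0.02) for 54 of 54 members in every column, at library totals of 12796339 and 15144991 reads in MF02 and 12507299 and 13040931 in UV02_HG. The pseudocount was 1, and a feature was tested when either strain reached 1 FPKM. The length adjustment was run on simulated data with a planted length trend and less scatter between columns than in these data. That run does not give the error of the calls made here. The members, lists and alternatives were chosen with earlier results of these data known. The rule for named genes took the 6 members highest and the 6 lowest relative to length, the 4 with the highest and the 4 with the lowest level, and those 2-fold different in all 4 column comparisons both ways, 19 genes in all. Genes at the tunnel exit, stalk and decoding site, VAR1, the ribosomal RNAs, and the 2 highest and 2 lowest of each related list could be added. EHD3, MRPL49, RSM24, MRPL28, MRPL44, YTA12, CCM1, RPP1 and the mitochondrial respiratory genes were named after their values were seen. Computation used matplotlib 3.10.9, scipy 1.17.1, pandas 2.3.3 and numpy 2.4.6 under Python 3.11.15.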

Additional observations from a re-analysis of the deposited data

How the results depend on the processing

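No paired analysis was possible because each strain has 1 sample. The median relative to length, -0.33, was negative under all 19 alternatives run, between -0.53 and -0.05. Subtracting the running median takes out a shift shared by all genes, so the scalings among them could hardly change its direction. It was smallest in size, at -0.05, without MF02 column 2. The median log2 ratio as deposited was -1.53 under equal FPKM totals, 0.36 under upper quartile scaling, 0.58 under centring on the median gene and -0.48 with the other mitochondrial ribosomal proteins added, and ran from -0.59 to -0.27 without single columns. The 13 genes at least 2-fold higher became 0 under equal totals and 21 under centring. Without single columns they numbered 10 to 13 (18.5% to 24.1%), where 14.0% to 17.8% of all features were. The 21 lower became 33 (equal totals), 9 (upper quartile), 7 (centring) and 32 (genes added, 41.0%, where 47.2% of all features were). Without single columns they numbered 14 to 24 (25.9% to 44.4%), where 32.7% to 51.7% of all features were. The shares under the scalings are given above. Relative to length, a 1.5-fold mark gave 14 higher (25.9%) and 20 lower genes (37.0%), where 28.6% and 28.7% of all genes were. Added genes gave 16 lower (20.5%), where 16.8% of all genes were. Leaving out single columns gave 6 to 9 higher (11.1% to 16.7%), where 14.5% to 20.6% of all genes were. It gave 9 to 15 lower (16.7% to 27.8%), where 15.8% to 18.2% of all genes were. Both counts were highest without MF02 column 1. Large minus small subunit, 0.16, was 0.015 with a pseudocount of 5, 0.011 under equal totals, 0.051 under upper quartile scaling, 0.033 with at least 5 FPKM, -0.049 with genes added, -0.11 for means, -0.12 after GC adjustment, and 0.0088 to 0.37 without single columns; it was 0.045 without MRPL38 and the genes overlapping another (chosen after seeing the data). Of the genes named by the rule that were at least 2-fold different as deposited, MRPS17 (-0.047) and MRPL51 (-0.052) changed direction under equal FPKM totals. With smaller differences included, 23 of the 54 members changed direction under 1 or more scalings, among them RSM26 (-0.28), MRPS12 (-0.49) and MRPL38 (-0.011) under equal totals. Few reads limit MRPL38 and VAR1, and the cause of their low counts was not tested.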
